A study of Mus musculus with 3 samples.

Results

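The genes described are those for voltage-gated calcium channels, voltage-gated sodium channels and potassium channels, taken from a count table of mouse intestine. They were chosen by symbol alone: every row whose symbol began with Cacna, Cacnb, Cacng, Scn followed by a digit, or Kcn. The rule found 134 of 21983 listed genes, of which 26 belong to calcium channels, 14 to sodium channels and 94 to potassium channels. All 134 matched a protein-coding gene of the annotation. Of them, 123 had at least 1 count in some library, 77 had a mean of at least 1 CPM (counts scaled to library size, as described under the processing) over the 3 libraries, and 35 had a mean of at least 5 CPM.

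The study sequenced RNA of intestine from mouse pups in 3 groups with 1 library each. The PCI34051+NEC library came from pups that went through a model of NEC (necrotizing enterocolitis, in which the bowel of newborns becomes inflamed and necrotic) and were given PCI34051, an inhibitor of the lysine deacetylase HDAC8, by mouth at 10 mg/kg per day for 5 days, starting the day before the model. The NEC library came from pups given PBS in place of the inhibitor in the same model. In both, pups were gavaged with 40 µl of 33% formula at intervals of 4 h over 96 h, and were exposed every 12 h to hypoxia (99.9% nitrogen, 100 s) and then to cold (4 °C, 10 min). The Control library came from pups fed by the dam, with PBS and with neither hypoxia nor cold. All pups are labelled WT and were killed after the 96 h. Strain, age in days, intestinal segment and the number of pups behind each library were not given in the sources used here. The name of the column used as PCI34051+NEC differs by a few characters from that sample's description, and every value given for it rests on that match.

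Voltage-gated calcium and sodium channels each have a large pore subunit that opens on depolarization, with smaller subunits that set how much of it reaches the membrane and how it gates. Potassium channels are more varied: voltage-gated, calcium-activated, inwardly rectifying and tandem-pore-domain families each set or restore the resting potential in their own way. In the gut wall, calcium entry through L-type channels drives contraction of smooth muscle, sodium channels carry action potentials of enteric neurons, and potassium channels of the epithelium provide the driving force for chloride secretion.

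Totals were 16497580, 10650638 and 15076413 counts in the PCI34051+NEC, NEC and Control libraries, and the floor of 3 counts that stands here for a gene with none was worth 0.197, 0.274 and 0.189 CPM in them. Reads were not tagged per molecule as far as the labels say, so every interval and floor covers counting error only. With 1 library a group there is no replicate check and no test, and each difference describes these libraries and not the conditions. The NEC library stood apart from the other two: mitochondrially encoded genes took 3.73% of counts in PCI34051+NEC, 32.4% in NEC and 4.88% in Control. Gapdh was at 3.55, 33.3 and 5.16 CPM, from only 54, 365 and 82 counts. Rpl13a was also low, at 7.82, 15.4 and 9.06 CPM, while Actb was at 2043, 2723 and 2412 CPM. Whether the low Gapdh and Rpl13a values come from expression or from the counting of near-identical genes was not tested. The labelled tissue was checked on Vil1, a brush border gene of intestinal epithelium, which was at 983 CPM in PCI34051+NEC, 492 CPM in NEC and 1015 CPM in Control. The 3 comparisons share libraries, since NEC enters 2 of them and so do PCI34051+NEC and Control, and their values are therefore given side by side without any measure of likeness between comparisons.

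Channel genes of all classes were counted higher in the NEC library. The 134 members summed to 543 CPM in PCI34051+NEC, 1562 CPM in NEC and 374 CPM in Control. A member was counted as higher or lower where it differed at least 2-fold on the scale of log2(CPM + 1), a scale that understates differences of low genes and on which no gene under 1 CPM in both libraries can be counted. In NEC against Control, 51 of 134 members (38.1%) were higher and 6 (4.48%) were lower, where 16.1% and 15.3% of all listed genes were. In PCI34051+NEC against NEC, 2 members (1.49%) were higher and 54 (40.3%) were lower, beside 16.4% and 16.8% of all listed genes. In PCI34051+NEC against Control, 4 members (2.99%) were higher and 8 (5.97%) were lower, beside 4.07% of all listed genes in either direction.

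Among genes with a mean of at least 1 CPM, the median log2 difference of NEC minus Control was 1.5 over 77 members and -0.08 over all 13728 genes. For PCI34051+NEC minus NEC it was -1.63 over members and 0.09 over all genes, and for PCI34051+NEC minus Control it was -0.05 and 0.01. Calcium channel genes stood furthest out, summing to 127 CPM in PCI34051+NEC, 821 CPM in NEC and 113 CPM in Control, with a median of 2.05 for NEC minus Control. Sodium channel genes summed to 19.8, 112 and 21.6 CPM in the same libraries, with a median of 1.74. Potassium channel genes summed to 397, 629 and 239 CPM with a median of 1.07, and were the only class with members counted higher in PCI34051+NEC than in NEC. Of the 77 members, 46 were higher and 4 lower in NEC than in Control, beside 22.9% and 23.5% of all 13728 genes. In PCI34051+NEC against NEC 2 were higher and 50 lower, beside 25.9% and 24.0%, and in PCI34051+NEC against Control 4 were higher and 7 lower, beside 6.42% and 5.87%.

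**Figure D1:**
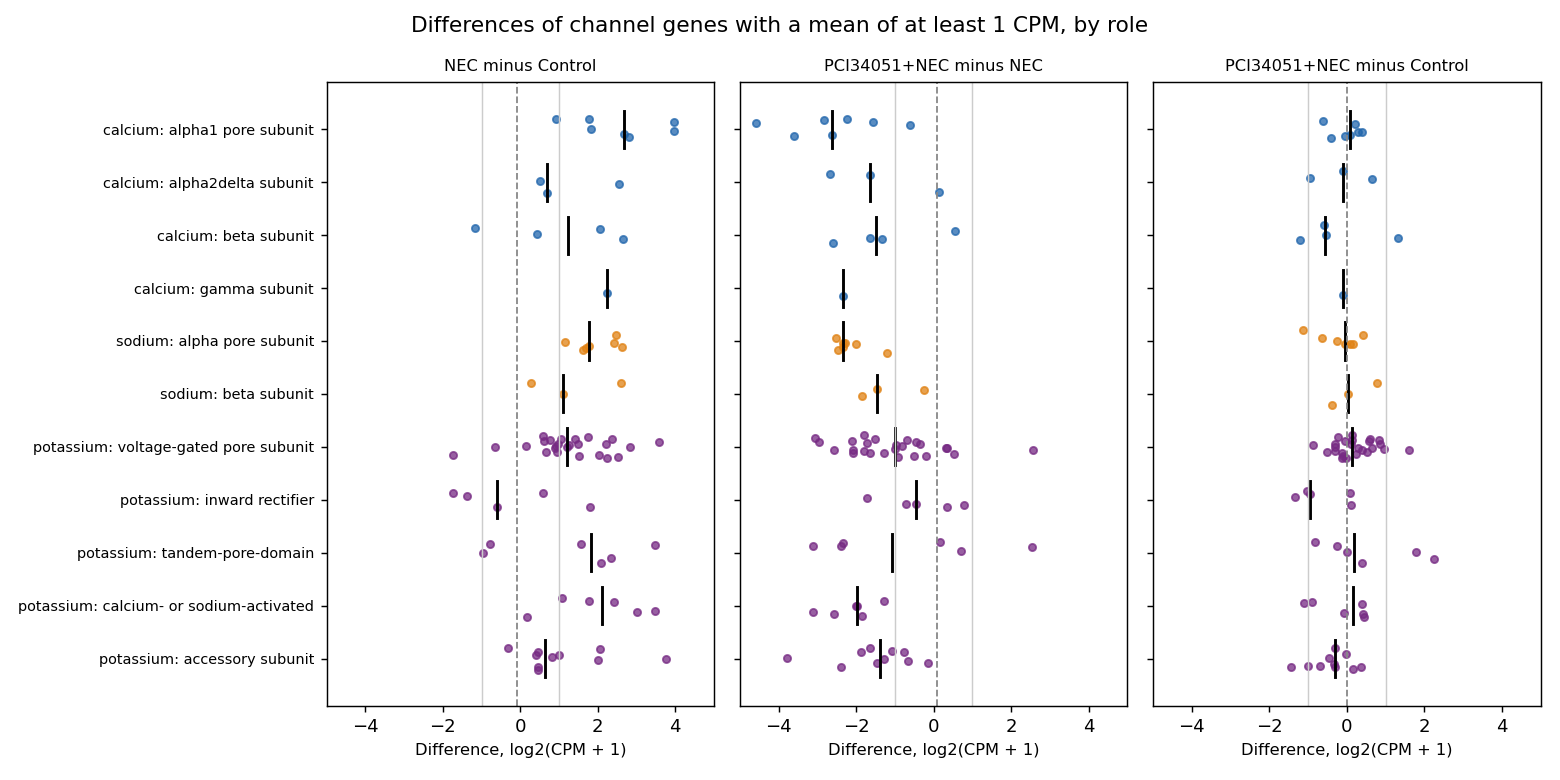
Log2 differences, on the scale of log2(CPM + 1), of the 77 channel genes with a mean of at least 1 CPM, 1 point a gene, in rows by class and role, for NEC minus Control, PCI34051+NEC minus NEC and PCI34051+NEC minus Control. Short black bars are row medians, the dashed line is the median of all genes and the grey lines mark 2-fold. Calcium pore subunits lie furthest right in the first panel (median 2.68) and inward rectifiers lie left of the rest (median -0.61), and most points of the last panel lie between the grey lines.

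Markers of the cell types that carry these channels also differed between the libraries. In bulk tissue, fewer cells of a type and less RNA per cell cannot be told apart. Smooth muscle markers summed to 1554 CPM in PCI34051+NEC, 12116 CPM in NEC and 1626 CPM in Control. Of these 10 genes, 8 were higher in NEC than in Control, none was lower, and none was at 0 in any library. All 10 had a mean of at least 1 CPM, and of all such genes 22.9% were higher and 23.5% lower. The smooth muscle myosin heavy chain gene Myh11 was at 286, 4215 and 268 CPM in the 3 libraries in that order, alpha actin Acta2 at 263, 2326 and 310 CPM, and gamma actin Actg2 at 292, 2133 and 188 CPM.

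The 14 markers of enteric neurons summed to 324 CPM in PCI34051+NEC, 1109 CPM in NEC and 391 CPM in Control, with 12 higher and 1 lower in NEC than in Control and none at 0. The lower one was Ret, a receptor of enteric neural precursors. Among the highest of the list, the intermediate filament gene Prph was at 40.3, 396 and 44.7 CPM and the neuronal hydrolase Uchl1 at 19.4, 138 and 17.8 CPM. All 5 fibroblast markers were higher in NEC than in Control and lower in PCI34051+NEC than in NEC, with sums of 630, 2574 and 688 CPM and none at 0. Of 4 pericyte markers 2 were higher in NEC than in Control, with sums of 128, 318 and 115 CPM and none at 0. The 4 endothelial markers differed less, with 1 higher and none lower, a median log2 difference of 0.11 for NEC minus Control, and sums of 100, 152 and 100 CPM. All 3 markers of interstitial cells of Cajal, the pacemakers of the gut, were higher in NEC than in Control, with sums of 36.0, 163 and 39.3 CPM. Epithelial markers ran the other way in their sum, at 7197 CPM in PCI34051+NEC, 3203 CPM in NEC and 6796 CPM in Control, with 3 of 9 higher and 4 lower in NEC than in Control. None of the 9 was at 0. Epcam, an adhesion gene of epithelia, was at 2797, 404 and 2731 CPM, while the keratin Krt19 ran the other way, at 117, 638 and 54.2 CPM. Beside these counts of markers, 22.9% of all genes with a mean of at least 1 CPM were higher and 23.5% lower in NEC than in Control. In PCI34051+NEC against NEC 24.0% of such genes were lower. The part of these cell types in the channel gene differences was not tested.

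The pore-forming subunits of calcium channels had the largest summed level of any role in NEC. Summed over the 10 alpha1 genes they were at 59.6 CPM in PCI34051+NEC, 570 CPM in NEC and 59.8 CPM in Control. Of the 10, 7 were higher in NEC than in Control and none was lower, beside 16.1% and 15.3% of all listed genes. In PCI34051+NEC against NEC 7 were lower, beside 16.8%. None of the 10 differed 2-fold between PCI34051+NEC and Control on the log2(CPM + 1) scale, beside 4.07% of all listed genes in either direction.

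T-type channels open at low voltages and take part in pacemaking. Cacna1h, a T-type pore gene, was at 16.2 CPM (246 counts) in PCI34051+NEC, 206 CPM (2255 counts) in NEC and 12.1 CPM (192 counts) in Control. NEC was 17.0-fold over Control by the plain ratio of CPM (95% counting interval 14.7 to 19.9), and PCI34051+NEC was 12.7-fold under NEC (11.2 to 14.6). Cacna1g, another T-type pore gene, was at 5.32 CPM (81 counts), 150 CPM (1646 counts) and 8.68 CPM (138 counts) in the 3 libraries in that order. Its ratio of NEC over Control was 17.3 (14.5 to 20.7) and PCI34051+NEC was 28.3-fold under NEC (22.6 to 35.8). The NEC library alone was high in both genes, and the other libraries were within 2-fold of each other.

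Cacna1c, the L-type pore gene that carries the contractile calcium current of smooth muscle, was at 12.1 CPM in PCI34051+NEC, 92.9 CPM in NEC and 12.5 CPM in Control. NEC over Control was 7.42 (6.37 to 8.68), while PCI34051+NEC over Control had an interval that held 1 (1.04-fold lower, 0.843 to 1.27). Cacna1d, the L-type pore gene known for pacemaking and hormone-secreting cells, differed less, at 4.34, 7.21 and 3.33 CPM in the same order, a log2 difference of 0.92 for NEC minus Control. Cacna1s, the L-type gene of skeletal muscle, had 5, 7 and 1 counts.

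Pore genes of the channels that trigger transmitter release at nerve terminals were higher in NEC as well. Cacna1e, the R-type gene, was at 8.08 CPM in PCI34051+NEC, 54.2 CPM in NEC and 7.61 CPM in Control, and NEC was 7.13-fold over Control (5.85 to 8.74). Cacna1a, the P/Q-type gene, was at 7.55, 39.4 and 10.4 CPM, with a ratio of 3.77 (3.14 to 4.54) for NEC over Control. Cacna1b, the N-type gene, was at 5.39, 17.9 and 4.53 CPM, with a ratio of 3.95 (3.0 to 5.25). Of these genes Cacna1a is the one whose difference passed under 2-fold when the trend with GC content and length was removed, as described with the GC values.

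The accessory calcium channel subunits did not share one pattern. Cacna2d1, the alpha2delta subunit of muscle, was at 13.5 CPM in PCI34051+NEC, 90.7 CPM in NEC and 14.6 CPM in Control, 6.21-fold higher in NEC than in Control (5.38 to 7.20). Cacnb3, a beta subunit that brings the pore to the membrane, was at 38.6, 98.7 and 15.0 CPM in the same order. It was 6.59-fold higher in NEC than in Control (5.72 to 7.62) and 2.58-fold higher in PCI34051+NEC than in Control (2.21 to 3.01), so that the 3 libraries gave 3 levels with separate intervals. With the trend of GC content and length removed, its log2 difference of PCI34051+NEC minus NEC was -0.29 beside -1.33 unadjusted, under 2-fold.

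The other beta subunits differed from Cacnb3. Cacnb1, the beta subunit of skeletal muscle that is also made elsewhere, was at 3.35 CPM in PCI34051+NEC, 25.1 CPM in NEC and 5.29 CPM in Control. Cacnb2, the main beta subunit of heart, was at 2.82, 10.9 and 7.80 CPM, so that NEC and Control were close (1.39-fold, 1.07 to 1.81) and PCI34051+NEC was 2.76-fold lower than Control (1.94 to 4.00). Cacnb4, a neuronal beta subunit, was at 3.02, 1.74 and 5.10 CPM and was the only calcium channel member counted lower in NEC than in Control (2.94-fold, 1.77 to 5.13). Of its exonic length, 16.0% overlaps another gene. Among the 8 gamma subunits Cacng4, a partner of neuronal glutamate receptors, alone had a mean of at least 1 CPM, at 1.91 CPM in PCI34051+NEC, 13.7 CPM in NEC and 2.14 CPM in Control. Cacng6, Cacng7 and Cacng8 had no count in any library.

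**Figure D2:**
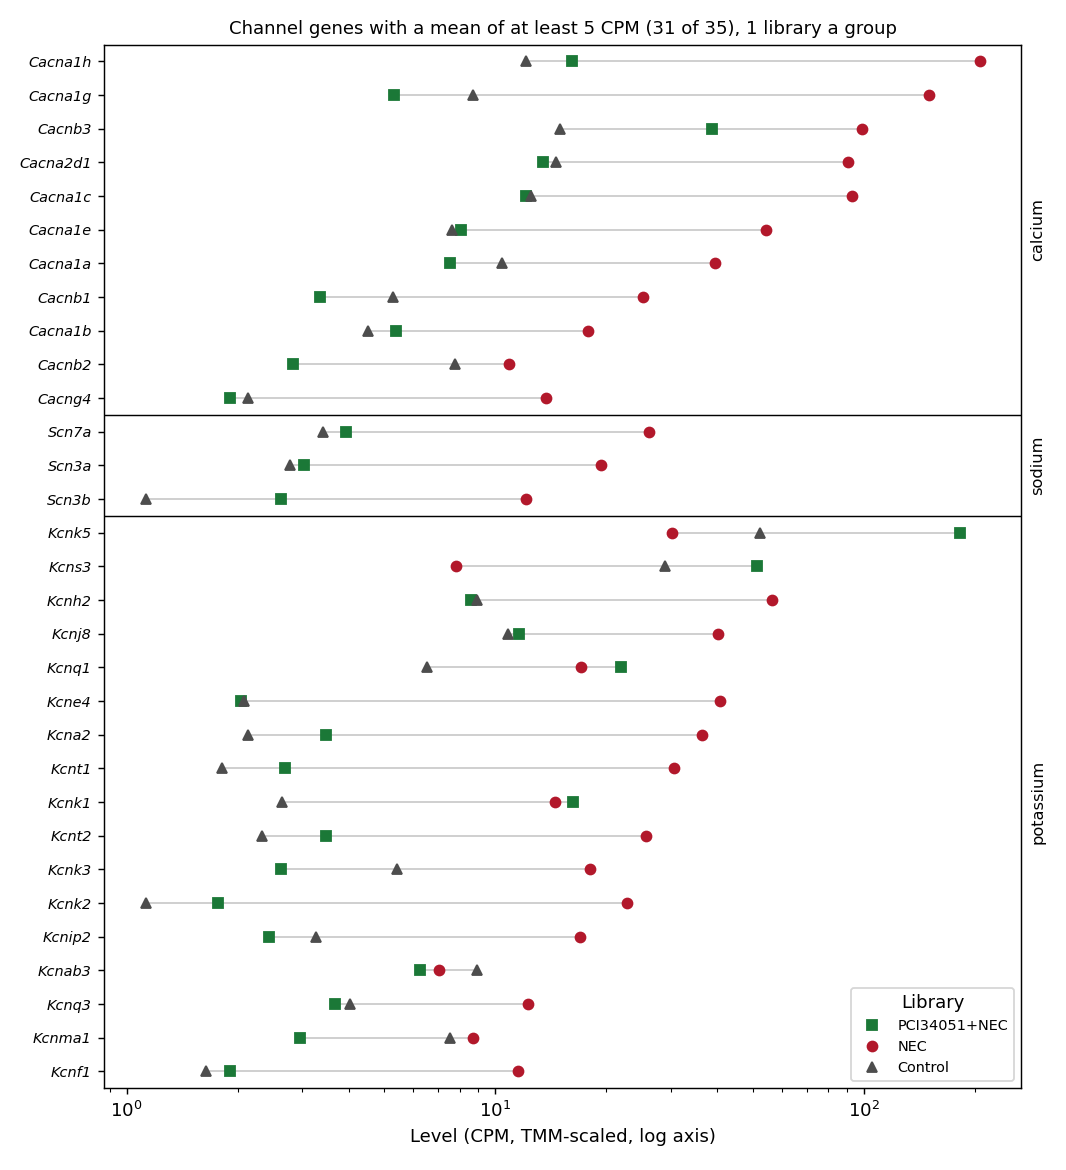
Levels in CPM on a log axis of 31 of the 35 channel genes with a mean of at least 5 CPM, 1 row a gene, with squares for PCI34051+NEC, circles for NEC and triangles for Control, each 1 library. In all 11 calcium and 3 sodium channel genes drawn the NEC circle is the rightmost, from 10.9 CPM for Cacnb2 to 206 CPM for Cacna1h, while Kcnk5 and Kcns3 have their lowest level in NEC.

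Sodium channel genes were low but nearly uniform in direction. Of the 14, 9 were higher in NEC than in Control and none was lower, beside 16.1% and 15.3% of all listed genes. In PCI34051+NEC against NEC 9 were lower and none higher, beside 16.8% and 16.4%. Between PCI34051+NEC and Control 1 gene differed 2-fold on the log2(CPM + 1) scale, Scn11a, a pore gene of peripheral neurons. Scn11a was at 0.526 CPM (8 counts) in PCI34051+NEC and 2.33 CPM (37 counts) in Control. By the plain ratio it was 4.43-fold lower in PCI34051+NEC (2.03 to 11.0). Its NEC level was 6.39 CPM.

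Among the pore genes, Scn7a, an atypical channel that senses sodium and is made in glia and peripheral nerve, was the highest by counts. It was at 3.94 CPM in PCI34051+NEC, 26.2 CPM in NEC and 3.40 CPM in Control, 7.71-fold higher in NEC than in Control (5.75 to 10.5). Scn3a, a channel of embryonic and enteric neurons, was at 3.02, 19.4 and 2.77 CPM (6.99-fold, 5.03 to 9.91). Scn8a, the channel of axon initial segments and nodes, was at 1.25, 11.8 and 1.32 CPM (8.92-fold, 5.59 to 14.9).

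Scn9a, a channel of sensory and autonomic neurons, was at 1.77 CPM in PCI34051+NEC, 10.1 CPM in NEC and 2.27 CPM in Control. Scn4a, the channel of skeletal muscle, had 1, 0 and 8 counts in the same order. Beta subunits anchor the pore and speed its gating: Scn3b was at 2.63, 12.1 and 1.13 CPM, and Scn2b at 1.77, 2.28 and 1.70 CPM, with an interval of NEC over Control that held 1 (0.748 to 2.41).

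A cluster of 5 sodium channel pore genes lies on chromosome 2 in mm10, in the order Scn3a, Scn2a, Scn1a, Scn9a and Scn7a, from 65457118 to 66784914. Their sum was 10.3 CPM in PCI34051+NEC, 60.6 CPM in NEC and 9.19 CPM in Control. Of these, 4 were higher in NEC than in Control and none was lower, beside 16.1% and 15.3% of all listed genes. Scn1a was the exception in level, with 5, 8 and 1 counts. These genes are paralogs, and reads shared between them may have been split by the counting.

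Potassium channel genes tied to smooth muscle were mostly highest in NEC. Kcnh2, a voltage-gated channel that repolarizes heart and gut muscle, was at 8.61 CPM in PCI34051+NEC, 56.4 CPM in NEC and 8.93 CPM in Control (6.32-fold higher in NEC than in Control, 5.26 to 7.64). Kcnk3, an acid-sensitive background channel, was at 2.63, 18.1 and 5.41 CPM (3.34-fold, 2.58 to 4.36). Kcnq5, a slowly activating voltage-gated channel, was at 0.526, 5.39 and 1.76 CPM and was likewise counted higher in NEC than in Control.

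Kcnj8 is the pore of the ATP-sensitive potassium channel of vascular and visceral muscle and of pericytes. It was at 11.6 CPM in PCI34051+NEC, 40.1 CPM in NEC and 10.8 CPM in Control, 3.70-fold higher in NEC than in Control (3.10 to 4.45). Its partner subunit gene Abcc9, the sulfonylurea receptor of muscle, lies 16.2 kb away on chromosome 6 and was at 21.9, 80.8 and 18.0 CPM. The pair of the neuroendocrine form differed from this. Kcnj11, its pore gene, had 15, 4 and 13 counts, while Abcc8, 3.76 kb away on chromosome 7, was at 1.97, 11.7 and 1.89 CPM.

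The large-conductance calcium-activated channel, which relaxes smooth muscle when calcium is high, did not go with these genes. Its pore gene Kcnma1 was at 2.96 CPM (45 counts) in PCI34051+NEC, 8.68 CPM (95 counts) in NEC and 7.55 CPM (120 counts) in Control. NEC over Control was 1.15 with an interval that held 1 (0.869 to 1.52), and PCI34051+NEC was 2.55-fold lower than Control (1.80 to 3.68). Its smooth muscle beta subunit Kcnmb1 was at 0.591, 3.38 and 2.20 CPM, 1.53-fold in NEC over Control (0.940 to 2.51) and 3.72-fold lower in PCI34051+NEC than in Control (1.76 to 8.81). Both were lower in PCI34051+NEC than in either other library.

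Over the 15 channel genes tied to smooth muscle, sums were 123 CPM in PCI34051+NEC, 842 CPM in NEC and 117 CPM in Control. In NEC against Control 11 were higher and none lower, with Cacnb2, Kcnma1, Kcnmb1 and Kcna5 under 2-fold on the log2(CPM + 1) scale. Kcna5 was low, with 23, 24 and 11 counts, and its plain ratio of NEC over Control was 3.17 (1.49 to 7.16). Of all genes with a mean of at least 1 CPM, which all 15 had, 22.9% were higher and 23.5% lower in NEC than in Control. In PCI34051+NEC against NEC none of the 15 was higher and 14 were lower, beside 25.9% and 24.0% of such genes. The sum of these channel genes was 7.22-fold higher in NEC than in Control, and the sum of the smooth muscle marker genes was 7.45-fold higher. Few genes weigh most in these sums: in NEC Cacna1h took 206 CPM and Cacna1g 150 CPM of the 842 CPM. Myh11 took 4215 of the 12116 CPM of the markers. The median log2 difference of NEC minus Control was 1.80 over the channel genes and 2.23 over the markers. The markers also spread widely, from Synpo2 at 23.7, 42.2 and 33.8 CPM to Myh11.

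**Figure D3:**
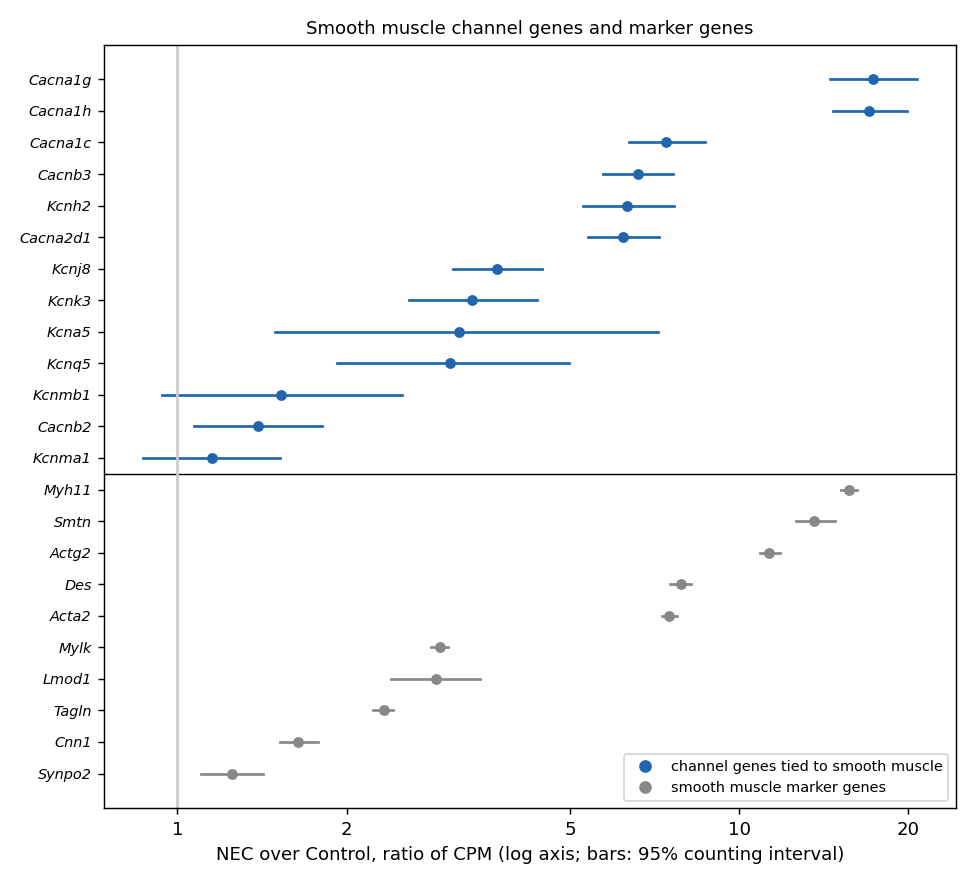
Ratio of CPM in NEC over Control, on a log axis, for 13 of the 15 channel genes tied to smooth muscle (above the line) and 10 smooth muscle marker genes (below it), with 95% counting intervals as bars. Both sets run from near 1, where Kcnma1 (1.15) has an interval crossing 1, to above 10, where Cacna1h and Cacna1g have ratios of 17.0 and 17.3.

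Channel genes listed with skeletal or cardiac muscle were mostly near the floor. That list leaves out genes described above that are also made in these tissues, such as Cacnb1, Cacnb2 and Kcnh2. Its 10 channel genes summed to 2.56 CPM in PCI34051+NEC, 5.66 CPM in NEC and 5.91 CPM in Control. Of the 10, 1 was higher in NEC than in Control and none was lower, beside 16.1% and 15.3% of all listed genes. The higher one was Kcna7, with 7, 16 and 3 counts. The inward rectifier Kcnj2 was at 1.05, 2.37 and 4.15 CPM, 3.95-fold lower in PCI34051+NEC than in Control (2.26 to 7.31). Of the 9 skeletal and cardiac marker genes 5 were higher in NEC than in Control and none was lower, beside the same shares of all listed genes. The 9 summed to 37.8, 265 and 25.5 CPM, mostly Tnnt2 (30.3, 224 and 17.7 CPM), and Myh1 had no count.

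Several neuronal potassium channel genes had ratios of NEC over Control above 10. Kcna2, a delayed rectifier of axons, was at 3.48 CPM in PCI34051+NEC, 36.3 CPM in NEC and 2.14 CPM in Control, 16.9-fold higher in NEC than in Control (11.9 to 24.8). Kcnt1 and Kcnt2 form sodium-activated channels that follow bursts of firing. Kcnt1 was at 2.69, 30.6 and 1.82 CPM (16.8-fold, 11.5 to 25.4), and Kcnt2 at 3.48, 25.7 and 2.33 CPM (11.0-fold, 7.81 to 16.0). For both, the interval of PCI34051+NEC over Control held 1.

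Kcnk9, an acid-sensitive background channel of neurons, was counted in NEC alone, with 0, 44 and 0 counts in PCI34051+NEC, NEC and Control. Set against the floor of 3 counts per library, it was at least 21.3-fold higher in NEC than in Control and at least 20.4-fold lower in PCI34051+NEC than in NEC. Its relative Kcnk2, a stretch-activated background channel, was at 1.77, 22.7 and 1.13 CPM (20.1-fold higher in NEC than in Control, 12.4 to 34.4). Kcnf1, a silent subunit that modifies other voltage-gated subunits, was at 1.91, 11.5 and 1.64 CPM. Kcnip2, a calcium-binding partner of the A-type channels, was at 2.43, 17.0 and 3.27 CPM.

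Kcnq3, a subunit of the M-current that damps repeated firing, was at 3.68 CPM in PCI34051+NEC, 12.3 CPM in NEC and 4.03 CPM in Control, 3.06-fold higher in NEC than in Control (2.26 to 4.19). Of the small-conductance calcium-activated channels that shape the afterhyperpolarization, Kcnn2 was at 1.05, 7.12 and 0.503 CPM and Kcnn3 at 0.197, 3.29 and 0.252 CPM.

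Over the 53 channel genes tied to neurons, sums were 96.2 CPM in PCI34051+NEC, 454 CPM in NEC and 97.6 CPM in Control. In NEC against Control 27 of the 53 were higher and 1 lower, beside 16.1% and 15.3% of all listed genes. Against NEC, 28 of the 53 were lower in PCI34051+NEC and none was higher, beside 16.8% and 16.4%. Against Control, 1 of the 53, Scn11a, was lower in PCI34051+NEC and none was higher, beside 4.07% each way. The sum of the 53 was 4.65-fold higher in NEC than in Control, beside 2.84-fold for the 14 enteric neuron markers. Of those markers Ret, the one that was lower, took 47.9 CPM of the sum in NEC and 198 CPM in Control. Without Ret, a choice made after seeing the data, the other 13 summed to 177 CPM in PCI34051+NEC, 1061 CPM in NEC and 193 CPM in Control, 5.5-fold higher in NEC than in Control. The glial inward rectifier Kcnj10, which clears potassium around neurons, had 9, 0 and 22 counts and was at least 5.05-fold lower in NEC than in Control. Glial markers did not share a direction: Sox10 was at 4.14, 24.8 and 3.90 CPM, S100b at 0.788, 2.19 and 2.64 CPM, and Gfap had no count in NEC.

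Kcne4, an accessory subunit that holds back Kcnq1 and other pores, had the largest ratio of NEC over Control among accessory subunits with a mean of at least 1 CPM. It was at 2.04 CPM (31 counts) in PCI34051+NEC, 40.7 CPM (446 counts) in NEC and 2.08 CPM (33 counts) in Control, so that NEC was 19.6-fold over Control (13.8 to 28.9). PCI34051+NEC was 20-fold under NEC (13.9 to 29.8). Between PCI34051+NEC and Control the interval of the ratio held 1 (0.605 to 1.72).

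Epithelial potassium channel genes did not share one pattern. The 10 genes tied to epithelium summed to 224 CPM in PCI34051+NEC, 72.0 CPM in NEC and 71.5 CPM in Control. Kcnk5 alone took 182, 30.2 and 52.2 CPM of these sums. In NEC against Control 3 were higher and 2 lower, beside 16.1% and 15.3% of all listed genes. In PCI34051+NEC against NEC 1 was higher and 1 lower, beside 16.4% and 16.8%. In PCI34051+NEC against Control 3 were higher and 1 lower, beside 4.07% in either direction. The one with the most counts in each library was Kcnk5, an alkaline-activated background channel of epithelia that keeps the membrane hyperpolarized during secretion.

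Kcnk5 was at 182 CPM (2763 counts) in PCI34051+NEC, 30.2 CPM (331 counts) in NEC and 52.2 CPM (830 counts) in Control. PCI34051+NEC was 6.0-fold over NEC (5.36 to 6.75) and 3.48-fold over Control (3.21 to 3.76), and NEC was 1.73-fold under Control (1.52 to 1.97). The summed epithelial markers were 2.25-fold higher in PCI34051+NEC than in NEC and 1.06-fold higher than in Control. Kcns3 has no tie to a cell type in the lists used; it is a silent subunit of the same kind as Kcnf1. It was at 51.4, 7.85 and 28.8 CPM, 6.54-fold higher in PCI34051+NEC than in NEC (5.23 to 8.27) and 1.79-fold higher than in Control (1.59 to 2.01). These were the only members counted higher in PCI34051+NEC than in NEC.

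Kcnq1 carries basolateral potassium in chloride-secreting cells and pairs with Kcne3. It was at 21.9 CPM in PCI34051+NEC, 17.1 CPM in NEC and 6.54 CPM in Control, 3.34-fold higher in PCI34051+NEC than in Control (2.67 to 4.21) and 2.61-fold higher in NEC than in Control (2.04 to 3.35). Kcne3 did not follow, at 1.64, 3.47 and 2.27 CPM. Kcnk1, a weakly conducting background channel of epithelia, was at 16.3, 14.5 and 2.64 CPM, 6.16-fold higher in PCI34051+NEC than in Control (4.43 to 8.77) and 5.49-fold higher in NEC than in Control (3.89 to 7.92). Both libraries of the NEC model were above Control in Kcnq1 and Kcnk1.

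The intermediate-conductance calcium-activated channel Kcnn4, made in epithelium and in lymphocytes, was at 0.788 CPM in PCI34051+NEC, 6.03 CPM in NEC and 2.33 CPM in Control. Immune markers did not go with it as a set in NEC against Control. They summed to 166, 70.4 and 445 CPM, and 1 gene made up most of each sum. Of the 5 markers, all with a mean of at least 1 CPM, 1 was higher and 3 lower, beside 22.9% and 23.5% of all such genes. The higher one was Itgam, at 1.77, 9.04 and 1.32 CPM, while Ptprc, the pan-leukocyte gene, had 3.22, 0.274 and 21.5 CPM. None of these 5 was at 0. Kcnj15 and Kcnj16, inward rectifiers of transporting epithelia, were highest in Control. Kcnj15 had 11, 4 and 40 counts, and Kcnj16 had 11, 0 and 37 counts, at least 8.50-fold lower in NEC than in Control. Kcnj13, another inward rectifier, had 8, 0 and 5 counts. Kcnj1, the renal secretory channel, had no count, and Kcne2, a subunit of gastric parietal cells, had 3, 3 and 6 counts.

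**Figure D4:**
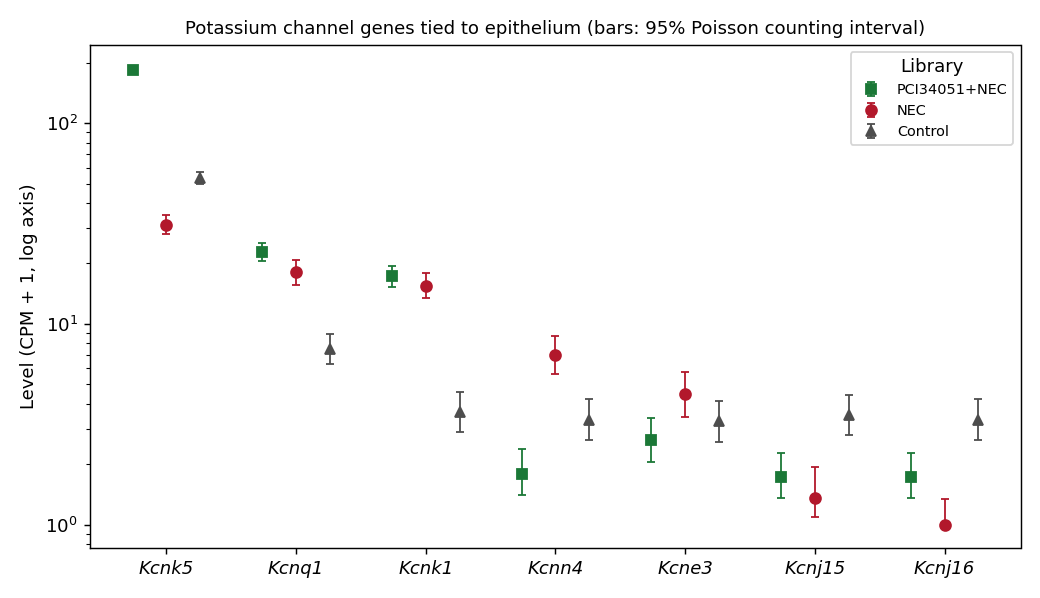
Level, as CPM plus 1 on a log axis, of 7 potassium channel genes tied to epithelium, with squares for PCI34051+NEC, circles for NEC and triangles for Control, each 1 library, and 95% Poisson counting intervals as bars. Kcnk5 is highest in PCI34051+NEC (182 CPM), Kcnq1 and Kcnk1 are lowest in Control, and Kcnj15 and Kcnj16 are highest in Control.

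Between PCI34051+NEC and Control the share of channel genes counted as 2-fold apart, 2.99% higher and 5.97% lower, was near that of all listed genes, 4.07% each way. The 4 higher ones were Kcnk1, Kcnk5 and Kcnq1 among the epithelial genes and the calcium channel subunit Cacnb3. The 8 lower ones were Cacnb2, Kcnma1 and Kcnmb1 of smooth muscle, the neuronal Scn11a, the inward rectifiers Kcnj2 and Kcnj15, the accessory subunit Kcnab2 and Kcnrg, a regulator that binds voltage-gated subunits. Kcnab2 was at 0.854 CPM (13 counts) in PCI34051+NEC and 4.03 CPM (64 counts) in Control, 4.72-fold lower (2.57 to 9.33). Kcnrg had 1 count in PCI34051+NEC and 25 in Control, a ratio with a counting interval from 3.92 to 983.

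Compared per length of exons, so that genes can be set against one another within a library, Kcnk5 led in PCI34051+NEC at 53.3 RPKM (here CPM per kilobase of exons). It was followed there by Kcns3 at 16.2 RPKM, Cacnb3 at 9.62 RPKM and Kcnk1 at 7.29 RPKM, with no overlap between the counting intervals of neighbours. In NEC the order was Cacnb3 at 24.6 RPKM and Cacna1h at 21.1 RPKM, then Kcnj8 at 15.7, Kcne4 at 15.3 and Cacna1g at 14.8 RPKM, the last 3 with overlapping intervals. In Control, Kcnk5 led at 15.3 RPKM, followed by Kcns3 at 9.09 RPKM and Kcnj8 at 4.25 RPKM. Kcnk5 and Kcns3 thus held the first places by level in both PCI34051+NEC and Control, and neither was among the first 7 in NEC.

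Promoters are shown for 3 of the members described above, as RefSeq windows of 300 bases in build GRCm38.p6, from 250 bases before the annotated start to 50 bases after it, 5′ to 3′ on the strand of the gene. Kcnk5 was highest in PCI34051+NEC (chr14:20181733-20182032, minus strand), while Kcnj8 (chr6:142571565-142571864, minus strand) and Kcne4 (chr1:78816661-78816960, plus strand) were highest in NEC. Capitals mark GGGCGG, the GC box, found 3 times in the window of Kcnk5 and in neither other window shown. The window of Kcnh2, a member highest in NEC like Kcnj8 and Kcne4, is not shown. It held GGGCGG 3 times as well, and its annotated start lies 22013 bases inside the gene. Counts per gene do not say which start was used.
Kcnk5: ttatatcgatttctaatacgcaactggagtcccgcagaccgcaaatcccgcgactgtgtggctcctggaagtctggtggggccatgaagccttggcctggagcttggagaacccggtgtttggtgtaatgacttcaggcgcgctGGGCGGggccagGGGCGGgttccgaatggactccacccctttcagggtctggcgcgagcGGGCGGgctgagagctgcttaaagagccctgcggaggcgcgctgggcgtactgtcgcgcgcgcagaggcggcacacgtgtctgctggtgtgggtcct
Kcnj8: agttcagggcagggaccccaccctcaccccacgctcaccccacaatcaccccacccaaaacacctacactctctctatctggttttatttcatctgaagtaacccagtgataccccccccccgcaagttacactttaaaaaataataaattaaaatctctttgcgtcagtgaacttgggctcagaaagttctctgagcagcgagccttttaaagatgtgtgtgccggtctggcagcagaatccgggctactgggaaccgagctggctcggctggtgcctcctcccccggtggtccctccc
Kcne4: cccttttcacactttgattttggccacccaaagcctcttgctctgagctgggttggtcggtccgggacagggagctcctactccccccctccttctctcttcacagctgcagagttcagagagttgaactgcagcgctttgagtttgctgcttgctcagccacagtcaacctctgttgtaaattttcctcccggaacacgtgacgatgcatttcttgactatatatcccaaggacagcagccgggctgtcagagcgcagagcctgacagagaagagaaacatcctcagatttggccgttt

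A window was found for 99 of 134 members, 135 windows in all. GGGCGG, searched on both strands, stood in 45.2% of members' windows and in 35.7% of all 32851 promoter windows of the same length. The TATA box letters TATAAA stood in 5.19% of members' windows and 13.6% of all, and ACANNNTGT, part of a steroid receptor site, in 5.19% and 6.85%. The CArG box, the site of serum response factor in smooth muscle genes, was in none of the 135 members' windows and in 1.63% of all. Among windows of members higher in NEC than in Control, 39.5% held GGGCGG, and 53.6% did among windows of members with a mean of at least 1 CPM and under 2-fold. A match of letters is a description and not a binding site.

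Genes that work beside these channels were described from lists of their own. Of 20 partner and related channel genes, 12 were higher in NEC than in Control and none lower, beside 16.1% and 15.3% of all listed genes. In PCI34051+NEC against NEC 11 were lower and none higher, beside 16.8% and 16.4%. None differed 2-fold between PCI34051+NEC and Control, and Lrrc52 had no count. Gem, a small GTPase that inhibits calcium channels by binding their beta subunits, was at 19.0 CPM in PCI34051+NEC, 179 CPM in NEC and 11.7 CPM in Control. The scaffold genes Ank2 and Ank3, which anchor ion channels, ran opposite ways, with Ank2 at 17.2, 78.1 and 15.3 CPM, and Ank3 at 74.6, 43.2 and 78.0 CPM in the same order.

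Calcium store and contraction genes differed in both directions. Of 15, all with a mean of at least 1 CPM, 4 were higher and 2 lower in NEC than in Control, where 22.9% and 23.5% of all such genes were, and their sum was 1079 CPM in PCI34051+NEC, 926 CPM in NEC and 813 CPM in Control. The sodium-calcium exchanger Slc8a1 was listed at 0 in NEC, with 2.43 CPM in PCI34051+NEC and 1.26 CPM in Control. The ryanodine receptor Ryr3, a calcium release channel, was at 6.31, 38.6 and 5.22 CPM. Of 15 epithelial ion transport genes, 5 were higher and none lower in PCI34051+NEC than in Control, beside 4.07% of all listed genes each way. The sodium pump subunit Atp1b1 was at 626, 172 and 137 CPM, and the chloride channel Cftr, which works with Kcnq1 in secretion, was at 24.0, 14.2 and 9.25 CPM.

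Differences of the NEC library also followed base composition over all genes. With genes split into 5 equal classes by GC content of the longest transcript, the median log2 difference of NEC minus Control over all genes was -0.36, -0.24, -0.17, 0.02 and 0.45, low to high GC. Over channel genes it was 1.00, 1.31, 1.45, 1.77 and 1.70, above the median of all genes in each class. Members' median GC was 50.5% and their median exonic length 5.95 kb, against 50% and 4.46 kb over all genes.

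After removal of the trend with GC and length, the members' median was 1.20 for NEC minus Control, -1.52 for PCI34051+NEC minus NEC and -0.11 for PCI34051+NEC minus Control. Of the 46 members counted higher in NEC than in Control at a mean of at least 1 CPM, 41 were still counted. Among those that were not were Cacna1a (0.95), Kcnk3 (0.97) and Kcnq1 (0.95), where the number is the adjusted log2 difference. Of the 50 counted lower in PCI34051+NEC than in NEC, 47 were still counted, and Cacnb3 (-0.29) was among those that were not. Kcnh2 had an adjusted difference of 1.34 for NEC minus Control beside 2.53 unadjusted, Cacna1h 2.93 beside 3.98, Cacnb3 1.58 beside 2.64 and Cacna1g 3.09 beside 3.97, all in the same direction. The part of GC content in these differences beyond this was not tested.

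**Figure D5:**
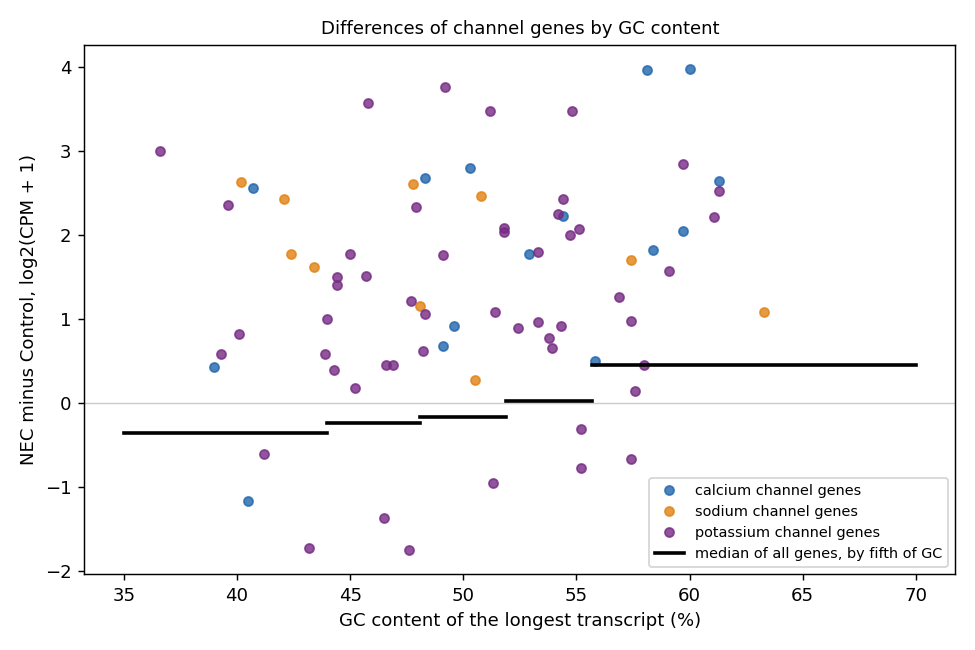
Log2 difference of NEC minus Control, on the scale of log2(CPM + 1), against GC content in percent of the longest transcript, for the 77 channel genes with a mean of at least 1 CPM, coloured by class. Black segments are medians of all genes in 5 equal classes of GC, from -0.36 to 0.45, with the outer classes drawn in part, and most channel genes lie above the segment of their class.

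At the low end, 11 members had no count in any library: Cacng6, Cacng7, Cacng8, Kcna10, Kcna4, Kcne1, Kcnh5, Kcnj1, Kcnj4, Kcnk15 and Kcnk18. Of the 77 members with a mean of at least 1 CPM, 55 were at 1 CPM or more in all 3 libraries, and 3 reached it in NEC alone. Exons of 39 members overlap another gene and, without a stated strand setting, reads of the pair cannot be told apart. The overlap exceeded 20% of exonic length in Kcna6 (39.6%), Kcnj3 (31.1%), Kcnj13 (49.1%) and Kcnmb4 (31.5%).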

How the data were processed

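Total RNA of intestine was sequenced as 150 bp paired-end reads, per the labels' protocols. The authors deposited 1 table of raw counts per gene symbol for all 3 libraries, with no further column (0 left unused), and mm10 is the build named, per the submitters' processing notes. Aligner, counter settings, annotation and strand were not given in the sources used here. Overlapping, antisense and near-identical genes may share counts.

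Library sizes were scaled by the TMM method of edgeR 4.0.16 under R 4.3.3, with factors of 0.923, 1.03 and 1.05 for PCI34051+NEC, NEC and Control. Differences are on log2(CPM + 1), and the threshold was 2-fold over all listed genes without a filter. Medians use genes with a mean of at least 1 CPM. Plain ratios carry exact conditional binomial (Clopper-Pearson) 95% intervals, and levels exact Poisson ones. Identifiers, lengths, GC content and overlaps came from GENCODE M21 (mm10), which matched 21926 of 21983 symbols. With 1 library a group no test was run. The steps were checked on simulated counts.

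The members and lists were chosen with earlier results of these data known. The text names members with the 12 largest differences each way at 5 CPM or more, the 10 highest per kilobase, members tied to a cell type with a mean of at least 5 CPM, and up to 3 genes of each list. A few members and list genes that this rule names are not reported here, and some are left out of the plots. Other named members and list genes were chosen after their values were seen. Alternatives were scaling by total counts, by DESeq2 1.42.0 size factors or by TMM without mitochondrial and the 50 most abundant genes, pseudocounts of 0.25 and 4, a mean of 5 CPM, a 1.5-fold threshold, intervals beyond 2-fold, thinning to 10650638 counts, and removal of GC and length trends in 30 bins. Other tools were matplotlib 3.10.9, scipy 1.17.1, pandas 2.3.3 and numpy 2.4.6 on Python 3.11.15.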

Additional observations from a re-analysis of the deposited data

How the results depend on the processing

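No paired analysis was possible because each group has 1 library. Without replicates, leaving 1 out was not possible either. Of 99 alternative values of the counts and medians, 78 stayed within 1.5 times a count or close to a median and 21 moved. None of the medians of at least 2-fold changed sign. With a pseudocount of 0.25, NEC against Control had 15 members lower and a median of 1.81, PCI34051+NEC against NEC had 9 higher and a median of -1.89, and PCI34051+NEC against Control had 9 higher and 17 lower. With a pseudocount of 4, NEC against Control had 1 lower and a median of 0.83, PCI34051+NEC against NEC a median of -1.0, and PCI34051+NEC against Control 0 lower. Over members with a mean of at least 5 CPM, NEC against Control had 29 higher, 1 lower and a median of 2.23. There PCI34051+NEC against NEC had 29 lower and a median of -2.34, and PCI34051+NEC against Control had 2 lower. Fewer genes enter under that minimum. At 1.5-fold, NEC against Control had 13 lower, PCI34051+NEC against NEC 6 higher, and PCI34051+NEC against Control 11 higher and 18 lower. With counting intervals beyond 2-fold, 4 were lower in PCI34051+NEC than in Control. The shares of all listed genes at these settings are not given here. These counts therefore describe what each setting does to the calls and are no result about channel genes. Total-count scaling moved the median of all genes by -0.14 in PCI34051+NEC minus NEC and by -0.17 in PCI34051+NEC minus Control. Of 735 alternative values of named members 646 stayed close and 89 moved. None of the differences of at least 2-fold given above changed sign. Smaller ones could: Kcnma1 in NEC minus Control was at 0.18 unadjusted and at -0.12 with the GC and length trend removed. The cause of these moves was not tested beyond what each setting does by construction.

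Depth limits the low genes: below the floor of 3 counts a library gives no usable level. Most gamma subunits and most channel genes listed with skeletal or cardiac muscle lie near it.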

Other observations

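For the calcium and potassium channel members with the highest mean level per kilobase, the 3 genes outside the channel families with the nearest levels over the 3 libraries, as the distance between centred log2(CPM + 1) profiles among 9327 genes with a mean of at least 10 CPM, are given as a description of 3 points each. For Cacnb3 they were Dpep1, a dipeptidase (20 CPM in PCI34051+NEC, 54.0 CPM in NEC and 7.55 CPM in Control, distance 0.042), Csnk1e, a casein kinase (distance 0.105), and Adamtsl4 (distance 0.116). For Kcnk5 they were Tm4sf5, a tetraspanin-like membrane protein (106, 17.2 and 29.1 CPM, distance 0.036), Pmaip1, an apoptosis gene (165, 26.5 and 48.4 CPM, distance 0.056), and Ugt1a7c, a glucuronosyltransferase (61.9, 9.13 and 16.4 CPM, distance 0.067).

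Enteroendocrine markers summed to 89.4 CPM in PCI34051+NEC, 97.4 CPM in NEC and 151 CPM in Control. Of the 6, 1 was lower and none higher in NEC than in Control. Of all genes with a mean of at least 1 CPM, which all 6 had, 23.5% were lower and 22.9% higher. The channel genes Cacna1d and Kcnj11, which take part in hormone secretion, did not differ 2-fold on the log2(CPM + 1) scale in any comparison.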
